A study of Mus musculus with 6 samples.

Results

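The 10 genes described here encode the 2 forms of the histone variant H2A.Z (H2afz and H2afv) and the proteins that put it into chromatin or take it out: Srcap, Ep400, Ruvbl1, Ruvbl2, Znhit1, Vps72, Anp32e and Ino80. Members were taken by gene symbol alone, as the rows of the deposited expression table that carry these names. The names themselves were chosen with earlier results of these data known. The table has 21639 gene entries, and 9 of the 10 symbols were found in it, each in a single entry. Srcap was found neither under its symbol nor under a synonym and was not analysed here. All 9 genes found had a mean of at least 1 RPKM (reads scaled to transcript length in kilobases and to library size), a level reached by 11842 entries.

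RNA-Seq was done on 3 mouse embryonic stem cell (ESC) lines, as ESCs (day 0, D0) and as embryoid bodies (EBs) after differentiation without LIF (day 3, D3). Each of the 6 conditions has 1 library. H2AZ WT cells carry a wild-type H2A.Z transgene fused to YFP at its C terminus, and H2AZ AP3 cells carry the same fusion with 3 substitutions in the acidic patch, G92N, D97N and S98K, which put H2A residues in place of those of H2A.Z. Both transgenes were delivered by lentivirus, are driven by a doxycycline-inducible CMV promoter, and were expressed in cells sorted for YFP. Both transgenic lines also received short hairpins that target the endogenous H2A.Z transcript in its 3′ UTR, so H2AZ WT is not an unmodified line. The remaining line is labelled H2AZ KD, for the knockdown, and the labels name no transgene for it. The labels give the strain V6.5 (129SvJaexC57BL/6) for every library, while the treatment notes name KH2 ESCs as the parent of the transgenic lines. The study compared the lines to ask what the divergent acidic patch of H2A.Z does during ESC differentiation. The comparisons below ask whether the genes for H2A.Z and its exchange machinery were expressed at different levels in the 3 lines or on the 2 days.

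H2A.Z replaces H2A in a share of nucleosomes, above all at promoters and enhancers. The SRCAP and p400/TIP60 complexes exchange H2A-H2B dimers for H2A.Z-H2B dimers, with the ATPases SRCAP and p400 as motors and with RUVBL1, RUVBL2 and small H2A.Z-binding subunits as parts. The chaperone ANP32E binds H2A.Z and removes it from nucleosomes, and the INO80 complex has been linked to its eviction and to nucleosome positioning.

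The hairpins act on a part of the H2afz transcript that a transgene without its 3′ UTR lacks. Their 2 target sites, each of 21 bases, are shown here because they decide which H2afz transcripts can be depleted. They lie in exon 5 of H2afz on the forward strand of chromosome 3 (mm9, the assembly NCBIM37), starting 44 and 140 bases after the stop codon in a 3′ UTR of 475 bases. The libraries' labels do not say which hairpin was used in which line.
hairpin 2, chr3:137529455-137529475: aacagctgtccagtgttggtg
hairpin 5, chr3:137529551-137529571: aattagccttccaaccaacca

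The sequences of hairpins 2 and 5 had 4 and 5 exact matches in the genome, because the genome holds intronless-looking copies of the H2afz transcript. The closest copy, at chr6:116123650-116124515, covers 81.0% of the transcript at 99.9% identity and holds both hairpin sites. A copy at chr12:84961158-84962123 covers 90.3% at 97.4% identity and also holds both, and a copy at chr7:137910448-137911313 covers 81.9% at 92.2%. The authors' alignment let a read match up to 20 locations, so reads from these places and from H2afz itself cannot be fully told apart. Ruvbl1 has a copy of the same kind on chromosome 1 (97.0% of the transcript at 99.1% identity), and none of the other members has a copy over at least 50% of its transcript at 90% identity or more.

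The stretch of the acidic patch that AP3 changes is 21 bases long and lies in exon 4 of H2afz. It is shown with the same stretch of H2afv, on the reverse strand of chromosome 11, since it is where the lines differ by design and where the 2 isoforms can be compared. Capitals mark the codons of residues 92, 97 and 98 in the labels' numbering, which leaves out the start methionine.
H2afz, chr3:137529056-137529076: GGAgatgaagaattgGATTCT
H2afv, chr11:6329127-6329147: GGTgatgaagagttgGATTCT

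Both stretches code for the same residues and differ at 2 bases. Turning the H2afz codons into those of AP3 takes at least 7 base changes (3 for G92N, 1 for D97N and 3 for S98K), against the 2 mismatches the authors allowed, so a read across the whole stretch of an AP3 transcript has more mismatches to H2afz than were accepted. Which codons the transgene uses is not given in the sources used here. Over their whole coding sequences of 384 bases, H2afz and H2afv are 79.2% identical and their proteins differ at 3 of 128 residues, but their longest exact shared run is 14 bases, so few reads could pass from the one gene to the other. Other coding reads of a transgene fall on the exons of H2afz where its cDNA matches the mouse gene, and the gene's value is then a sum of endogenous and transgene RNA.

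Depth was estimated from the spacing of low values, at 17.3 to 27.6 M reads per library, with the H2AZ AP3 library at D0 the deepest. Of the ESC marker list 6 of 7 genes were found, with a summed level of 1405 to 1509 RPKM at D0 and 979 to 1182 RPKM at D3, and 4 of the 6 (Zfp42, Esrrb, Klf4 and Tdgf1, not Pou5f1 or Sox2) were lower in every D3 library than in any D0 library. Of 5 genes of the primed state 4 (Fgf5, Otx2, Pou3f1 and Dnmt3b, not T) were higher in every D3 library than in any D0 library. The H2AZ AP3 ESC library stood apart from the other ESCs in some genes of these lists, with Sox2 at 110 RPKM against 191 and 196, Klf4 at 65.9 against 121 and 131, and Pou5f1 at 540 against 421 and 413. It also had the lowest Otx2 (1.37), Pou3f1 (3.27) and Fgf5 (0.106, near 0). Zfp42 (195 against 203 and 214), Esrrb (88.7 against 92.2 and 95.6), Tdgf1 (406 against 481 and 428) and Dnmt3b (30.7 against 34.0 and 36.9) lay nearer. T, at 0.491 against 0.264 and 0.372, was the highest of the ESCs. Fibroblast markers (7 of 7 found) summed to 22.9-26.1 RPKM in the other D0 libraries, to 44.9 RPKM in H2AZ AP3 ESCs and to 7.23-12.7 RPKM at D3, with Postn listed at 0 in H2AZ AP3 ESCs and at D3. Thy1 went against this sum, with 1.74 RPKM in H2AZ AP3 ESCs as in H2AZ WT ESCs and a higher level in every D3 library than in any D0 library. Extraembryonic endoderm markers (4 of 4) summed to 26.0 RPKM in H2AZ AP3 ESCs, against 7.60 and 11.2 RPKM in the other ESCs and 32.6-51.8 RPKM at D3. Cells had last been passaged without feeder cells. In such bulk libraries, fewer cells of a type and less RNA per cell cannot be told apart.

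Because the lines rest on H2afz, its level is given first. H2afz (chr3:137527563-137529886, forward strand) had 279 RPKM in H2AZ WT, 343 RPKM in the library labelled H2AZ KD and 304 RPKM in H2AZ AP3 at D0. At D3 it had 258, 236 and 394 RPKM in the same order. As deposited, the library labelled H2AZ KD was thus the highest of the ESCs and the lowest of the D3 libraries, and the highest level of all was that of H2AZ AP3 at D3. At D0 the value goes against the label. Every direction given for this library rests on the label. The study also checked the knockdown by other assays, which were not analysed here. In the transgenic lines the value can mix endogenous with transgene RNA, so the ratio between lines does not measure how far endogenous H2A.Z was depleted. The mean of these levels put H2afz at the 99.2 percentile of all gene entries, expressed or not, with an estimated 5110 to 8960 reads per library. The next values are log2 ratios, each with a 95% interval that covers counting error only.

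In H2AZ AP3 relative to H2AZ WT, H2afz differed by 0.12 (0.07 to 0.17) at D0 and by 0.61 (0.56 to 0.66) at D3. Relative to the library labelled H2AZ KD, H2AZ AP3 was lower by a log2 ratio of -0.18 (-0.22 to -0.13) at D0 and higher by 0.74 (0.69 to 0.78) at D3. The D3 ratios are the only H2afz ratios between lines past 1.5-fold, which is 0.58 on the log2 scale. Both ended short of it when scaled on the control genes Hprt, Gapdh and Tubb5 (0.21 and 0.39) or centred on genes of like transcript length (0.54 and 0.58). A ratio at least as large as these was seen in 8.42% and 6.27% of expressed entries. From D0 to D3, H2afz differed by -0.11 (-0.17 to -0.06) in H2AZ WT, by -0.54 (-0.58 to -0.49) in the line labelled H2AZ KD and by 0.37 (0.33 to 0.42) in H2AZ AP3. Scaled on the control genes, these were -0.14, -0.66 (past 1.5-fold) and 0.01. H2AZ AP3 was then at -0.27 to the library labelled H2AZ KD at D0, so its D3 level was no longer the highest of all.

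H2afv, the second gene for H2A.Z (chr11:6327229-6344446, reverse strand), had 52.2, 57.2 and 54.4 RPKM at D0 in H2AZ WT, the library labelled H2AZ KD and H2AZ AP3. At D3 it had 61.1, 56.4 and 63.3 RPKM. As deposited, the 6 libraries lay within 1.21-fold of each other, against 1.66-fold for H2afz. In no comparison did H2afv pass 1.5-fold, the log2 ratios between lines running from -0.12 to 0.17.

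Per unit of length, H2afz was the more abundant isoform in all libraries. The ratio of H2afz to H2afv was 5.35, 6.00 and 5.58 at D0 and 4.22, 4.19 and 6.22 at D3, in the order H2AZ WT, labelled H2AZ KD and H2AZ AP3. It was lower at D3 than at D0 in H2AZ WT and in the line labelled H2AZ KD, and higher at D3 in H2AZ AP3. In H2AZ WT both genes entered into this, with log2 ratios of D3 to D0 of -0.11 for H2afz and 0.23 for H2afv, while in the line labelled H2AZ KD H2afv was at -0.02.

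By the distance between log2 profiles over the 6 libraries, the genes most like H2afz among 8232 genes of at least 5 RPKM included Memo1 (distance 0.126) and Rraga (0.173). Memo1, for example, had 26.6, 34.1 and 32.4 RPKM at D0 and 26.7, 23.5 and 40.2 RPKM at D3. The profile of H2afv was nearest to those of Pola2 (0.0270), Imp3 (0.0410) and Rars2 (0.0602). Of the other members, Ruvbl1 had the profile nearest to H2afz, at rank 694, and Ruvbl2 the one nearest to H2afv, at rank 302. These distances describe 6 libraries that share lines and days.

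**Figure D1:**
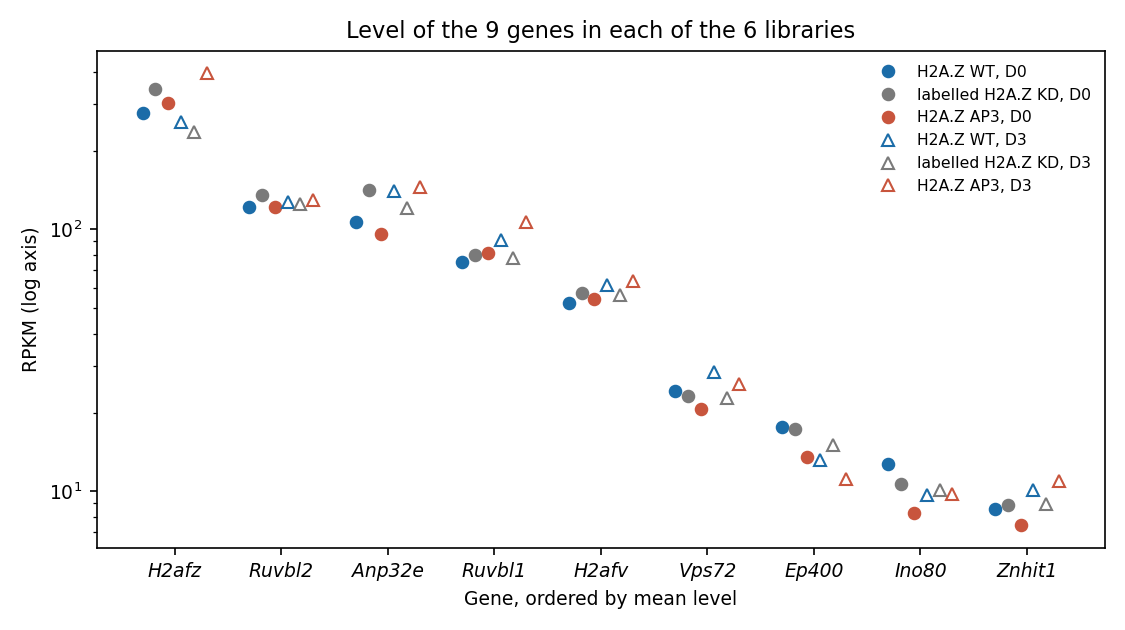
Level of each of the 9 genes in RPKM (log axis) in the 6 libraries, ordered by mean level, each point being 1 library, with filled circles for D0 and open triangles for D3 and colours for the line. H2afz lies above all other members in every library, and its open triangle for H2AZ AP3, at 394 RPKM, is the highest point.

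By mean RPKM the genes run from H2afz (302) through Ruvbl2 (127), Anp32e (125), Ruvbl1 (85.4), H2afv (57.4), Vps72 (24.2), Ep400 (14.6) and Ino80 (10.2) to Znhit1 (9.13). Some neighbours in this order are not separated by the spread over libraries: Ruvbl2 was above Anp32e in 3 of 6 libraries and Ino80 above Znhit1 in 4 of 6. Anp32e was above Ruvbl1, and Ep400 above Ino80, in all 6 libraries, although the ranges of each pair overlap. The remaining neighbours have ranges that do not overlap. The abundant members are thus a histone, a chaperone and the shared ATPases, while the large catalytic ATPases were expressed at far lower levels per unit of length.

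Znhit1 and Vps72 encode small subunits through which the exchange complexes work. VPS72 (also called YL1) binds the H2A.Z-H2B dimer and belongs to both SRCAP and p400/TIP60, and ZNHIT1 is a zinc finger subunit of SRCAP. Znhit1 (chr5:137458071-137472514, reverse strand) had 8.59, 8.84 and 7.43 RPKM at D0 and 10.1, 8.92 and 11.0 RPKM at D3, in the order H2AZ WT, labelled H2AZ KD and H2AZ AP3. Vps72 (chr3:94914964-94926973, forward strand) had 24.1, 23.2 and 20.6 RPKM at D0 and 28.5, 22.8 and 25.8 RPKM at D3.

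For both genes the H2AZ AP3 ESC library was the lowest of the 6 as deposited. Znhit1 went from this lowest value to its highest in H2AZ AP3 at D3, a log2 ratio of 0.56 (0.31 to 0.81), short of 1.5-fold, or 0.19 scaled on the control genes. It rests on an estimated 180 to 270 reads per library, the fewest of any member, and its interval is the widest. In the table its whole region of 14444 bases lies within that of an entry for Plod3 and Mir702, which had 12.6 to 24.0 RPKM. Reads of the 2 entries may have been shared there. For Vps72, the log2 ratio furthest from 0 between lines as deposited was -0.32 (-0.47 to -0.18), in the library labelled H2AZ KD against H2AZ WT at D3. Scaled on the control genes it was -0.38, and that of H2AZ AP3 against H2AZ WT at D3 was further from 0, at -0.54.

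Ep400 encodes p400, the SWI/SNF-family ATPase of the p400/TIP60 complex, which deposits H2A.Z and also holds the TIP60 acetyltransferase. It is the longest member (chr5:111093392-111199736, reverse strand, with a transcript of 10909 bases). Its level was 17.6, 17.3 and 13.5 RPKM at D0 and 13.2, 15.0 and 11.2 RPKM at D3. The H2AZ AP3 library was the lowest of the 3 lines on both days, and every line was lower at D3 than at D0.

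No Ep400 ratio passed 1.5-fold as deposited. Scaled on the control genes, H2AZ AP3 at D3 was past it, at -0.63 to H2AZ WT, -0.76 to the library labelled H2AZ KD and -0.64 to its own D0. Without that scaling, H2AZ AP3 relative to H2AZ WT gave log2 ratios of -0.38 (-0.45 to -0.31) at D0 and -0.23 (-0.31 to -0.15) at D3, and relative to the library labelled H2AZ KD -0.35 (-0.42 to -0.29) and -0.42 (-0.49 to -0.35). In the same order, genes of like transcript length had medians of -0.13, -0.13, -0.04 and -0.22. Centred on these, the Ep400 ratios were smaller, at -0.25, -0.10, -0.31 and -0.19. From D0 to D3 the ratio was -0.42 in H2AZ WT, -0.21 in the line labelled H2AZ KD and -0.27 in H2AZ AP3. Genes with a transcript of like length had medians of -0.24, -0.01 and -0.24 in these 3 comparisons.

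Ruvbl1 and Ruvbl2 encode AAA+ ATPases that form a ring together and are part of SRCAP, p400/TIP60 and INO80 alike. Ruvbl1 (chr6:88415417-88447560, forward strand) had 75.2, 80.0 and 81.2 RPKM at D0 and 91.0, 78.1 and 107 RPKM at D3. Ruvbl2 (chr7:52677268-52689834, reverse strand) had 122, 135 and 122 RPKM at D0 and 127, 125 and 129 RPKM at D3. As deposited, Ruvbl2 stayed within 1.11-fold over the 6 libraries, the narrowest range of the 9 genes. Scaled on the control genes its spread was wider, with H2AZ AP3 at D3 at a log2 ratio of -0.38 to H2AZ WT and -0.30 to the library labelled H2AZ KD.

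Ruvbl1 was highest in H2AZ AP3 at D3, where it stood at a log2 ratio of 0.45 (0.39 to 0.52) to the library labelled H2AZ KD and of 0.23 (0.16 to 0.30) to H2AZ WT, neither past 1.5-fold. Scaled on the control genes these were 0.11 and -0.16, so the direction to H2AZ WT turned. The ratio of Ruvbl2 to Ruvbl1 ran from 1.21 in H2AZ AP3 at D3 to 1.69 in the library labelled H2AZ KD at D0. The transcripts of these partners were thus not in a fixed ratio. As deposited, the difference lay mostly in Ruvbl1, but which of the 2 genes differed depends on the scaling. Scaled on the control genes, Ruvbl1 in H2AZ AP3 was at 0.03 from D0 to D3 and Ruvbl2 at -0.29.

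Anp32e encodes the chaperone that removes H2A.Z from nucleosomes (chr3:95733180-95751308, forward strand). Its level was 107, 141 and 96.4 RPKM at D0 and 140, 121 and 145 RPKM at D3, in the order H2AZ WT, labelled H2AZ KD and H2AZ AP3. The ESC library labelled H2AZ KD stood with the D3 libraries rather than with the other ESCs. With an estimated 6080 to 10090 reads per library, counting error is small beside these differences, while the spread between cultures is not measured and the scaling moves them.

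From D0 to D3 Anp32e differed by 0.38 (0.34 to 0.43) in H2AZ WT, by -0.22 (-0.26 to -0.18) in the line labelled H2AZ KD and by 0.59 (0.55 to 0.63) in H2AZ AP3, the last just past 1.5-fold. That value was 0.22 scaled on the control genes, 0.54 centred on the median ratio, 0.56 centred on genes of like length and 0.58 with a pseudocount of 1, each short of 1.5-fold. Between lines the ratio furthest from 0 was that of H2AZ AP3 to the library labelled H2AZ KD at D0, -0.55 (-0.59 to -0.51), just short of 1.5-fold. Scaled on the control genes it was -0.65, past 1.5-fold. The ratio of H2afz to Anp32e, the variant and its remover, was 2.60, 2.43 and 3.15 at D0 and 1.84, 1.95 and 2.72 at D3. It was highest in H2AZ AP3 on both days and lower at D3 than at D0 in each line. Any transgene RNA in the H2afz value enters into this ratio too.

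Ino80 encodes the ATPase of the INO80 complex (chr2:119198779-119303365, reverse strand, with a transcript of 6354 bases). It had 12.7, 10.7 and 8.28 RPKM at D0 and 9.70, 10.1 and 9.77 RPKM at D3. As deposited, the D3 libraries lay close together, and the ESC libraries spread on either side of them, with H2AZ WT the highest and H2AZ AP3 the lowest of all.

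Relative to H2AZ WT ESCs, Ino80 was lower in H2AZ AP3 ESCs by a log2 ratio of -0.62 (-0.73 to -0.51), past 1.5-fold. With a pseudocount of 1 it was -0.56 and centred on genes of like length -0.57, both short of it. The H2AZ AP3 ESC library is also the one with the higher fibroblast and endoderm marker sums given above, and their part in this value, and in the low Znhit1, Vps72 and Ep400 levels of the same library, was not tested. At D3 the ratio of Ino80 in H2AZ AP3 to H2AZ WT was 0.01 (-0.11 to 0.13). Scaled on the control genes it was -0.67 at D0 and -0.39 at D3. Ep400 to Ino80, the motors of a deposition and a removal complex, stood in a ratio of 1.15 to 1.64.

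**Figure D2:**
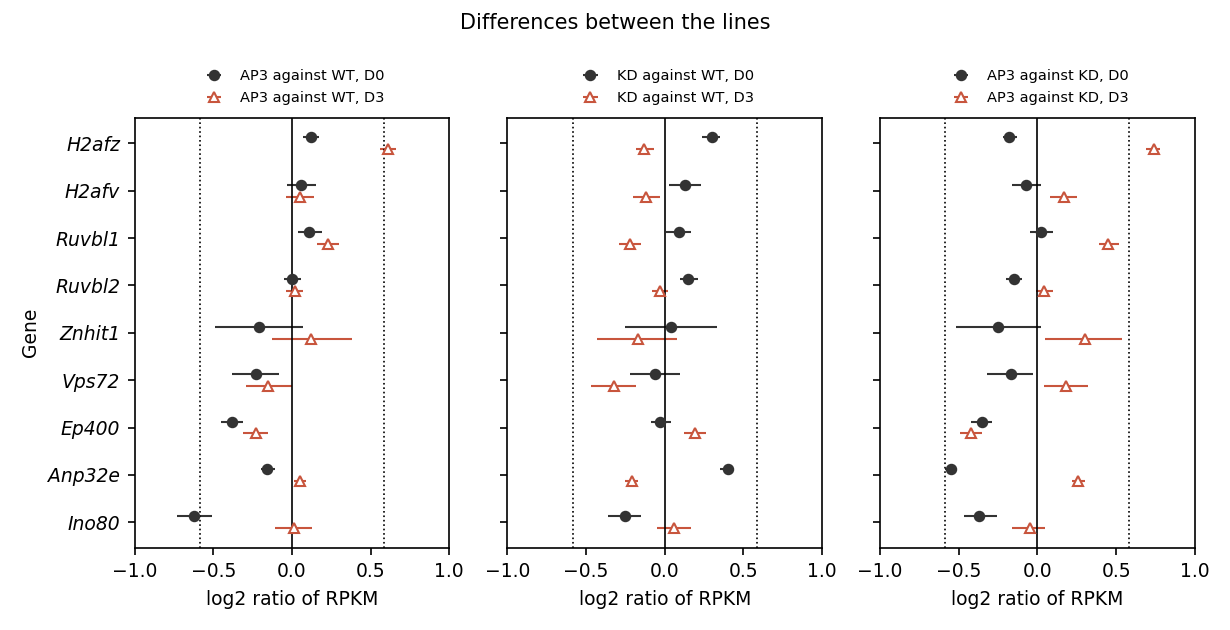
Log2 ratio of RPKM between lines for each gene, with D0 as filled circles and D3 as open triangles, 95% counting intervals as bars and 1.5-fold as dotted lines. KD stands for the library labelled H2AZ KD. Points past the dotted lines are Ino80 in H2AZ AP3 against H2AZ WT at D0 (-0.62) and H2afz in H2AZ AP3 against each other line at D3 (0.61 and 0.74).

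Members past 1.5-fold between the lines were counted beside the share of all expressed entries past it. For H2AZ AP3 against H2AZ WT, 1 of 9 members passed 1.5-fold at D0 (Ino80, lower) where 12.3% of the 11842 entries did, and 1 of 9 at D3 (H2afz, higher) against 9.26%. For the library labelled H2AZ KD against H2AZ WT, none of the 9 passed at D0 or at D3, against 6.96% and 7.77% of entries. For H2AZ AP3 against the library labelled H2AZ KD, none passed at D0 against 16.6%, and 1 at D3 (H2afz, higher) against 10.6%. Over entries of at least 5 RPKM, a level every member reached, the background was lower, at 7.11% and 4.68%, 2.81% and 3.60%, and 10.7% and 6.10% in the same order. The comparisons share libraries and are not independent of one another.

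The median log2 ratio of the members between H2AZ AP3 and H2AZ WT was -0.16 at D0, with 5 of 9 below 0, and 0.05 at D3, against a median of 0.00 for all entries on both days. For the library labelled H2AZ KD against H2AZ WT the median was 0.09 among the ESCs and -0.13 at D3, where 7 of 9 were below 0, with -0.03 for all entries. For H2AZ AP3 against the library labelled H2AZ KD it was -0.18 at D0, with 8 of 9 below 0, and 0.18 at D3, with 7 of 9 above. These D3 directions depend on the scaling: the control genes Hprt, Gapdh and Tubb5 were themselves higher in H2AZ AP3 at D3, by a mean log2 ratio of 0.40 to H2AZ WT and 0.34 to the library labelled H2AZ KD. Scaled on them, 6 and 5 members changed sign, H2afz differed by 0.21 and 0.39, short of 1.5-fold, and Ep400 passed it.

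**Figure D3:**
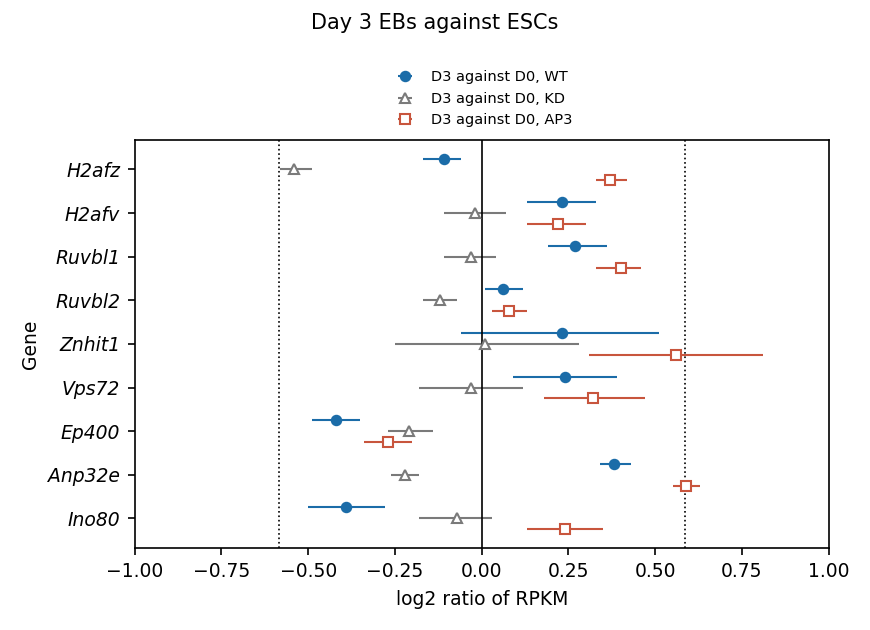
Log2 ratio of RPKM at D3 to D0 for each gene, with filled circles for H2AZ WT, triangles for the line labelled H2AZ KD (KD) and squares for H2AZ AP3, 95% counting intervals as bars and 1.5-fold as dotted lines. Anp32e in H2AZ AP3, at 0.59, is the only point past a dotted line, and H2afz lies between -0.54 and 0.37.

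The comparison of days asks how these genes differed between ESCs and EBs. From D0 to D3, none of the 9 members passed 1.5-fold in H2AZ WT, where 21.0% of entries did, none in the line labelled H2AZ KD against 20.4%, and 1 in H2AZ AP3 (Anp32e, higher) against 22.3%. The members' median log2 ratio was 0.23 in H2AZ WT, -0.07 in the line labelled H2AZ KD and 0.32 in H2AZ AP3, with 6, 1 and 8 of 9 genes above 0. For all entries it was 0.04 to 0.05. In H2AZ AP3 the control genes were higher at D3 by 0.37, and scaled on them the members' median was -0.04, 4 of the 9 members changed sign, and Ep400, in place of Anp32e, was the one past 1.5-fold.

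Over the 6 libraries as deposited, the highest level of a member was a median of 1.47-fold above its lowest, and 4 of 9 genes had a range past 1.5-fold. For all expressed entries the median was 1.52-fold, and 52.3% passed. The ranges of H2afz (1.66), Ep400 (1.57), Ino80 (1.54) and Anp32e, just inside, were those past it, and Znhit1 (1.47) lay just outside.

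**Figure D4:**
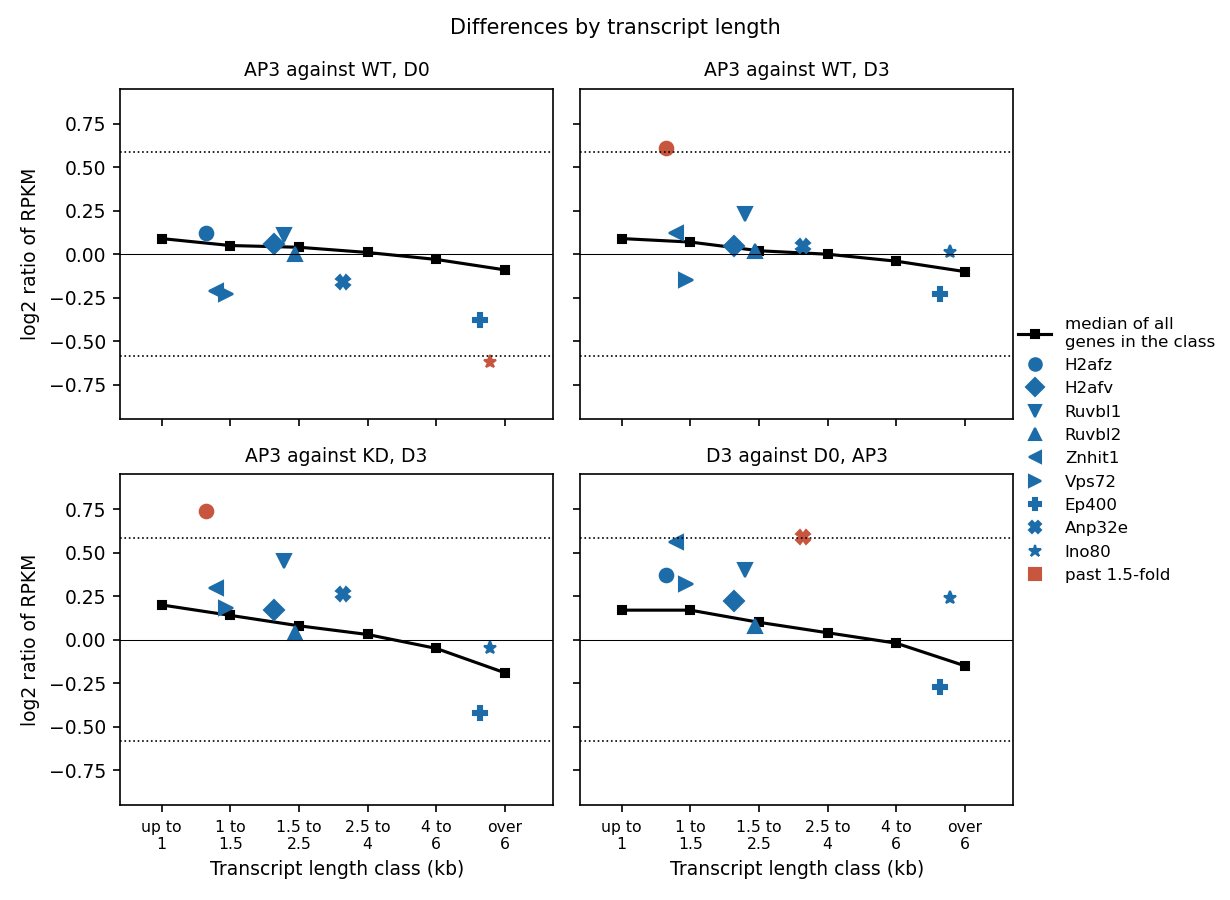
Log2 ratio of RPKM by transcript length class for the comparisons in which a member passed 1.5-fold (dotted lines), with the median of all genes in a class as black squares and each member as a symbol at its class, orange where past 1.5-fold. In all 4 panels the black line slopes down from short to long transcripts, from 0.20 to -0.19 for H2AZ AP3 against the library labelled H2AZ KD (KD) at D3.

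Across all genes, differences between libraries followed transcript length in some comparisons, most of all in H2AZ AP3 against the library labelled H2AZ KD at D3. Members lay on either side of the trend. In that comparison the median log2 ratio was 0.20 over the 836 genes with a transcript of up to 1000 bases and -0.19 over the 1284 genes with more than 6000 bases. The rank correlation with length was -0.292 over 11548 genes, which share the 2 libraries, and it was between -0.187 and 0.165 in the other comparisons. Among the members Ep400 and Ino80 belong to the longest class, and H2afz, with 1069 bases, to the class just above the shortest, its genes of like length having a median of 0.16.

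Measured relative to genes of like length, H2afz in H2AZ AP3 differed by 0.54 from H2AZ WT and by 0.58 from the library labelled H2AZ KD at D3. Ino80 in H2AZ AP3 against H2AZ WT ESCs became -0.57, and Anp32e in H2AZ AP3 at D3 against D0 became 0.56. All 4 ratios kept their direction and came to lie just short of 1.5-fold. In the line labelled H2AZ KD, by contrast, the ratio of H2afz at D3 to D0 became -0.64, past 1.5-fold, since genes of like length were higher there at D3, by a median of 0.11. Whether RNA quality or the preparation of the libraries had a part in the trend with length was not tested.

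**Figure D5:**
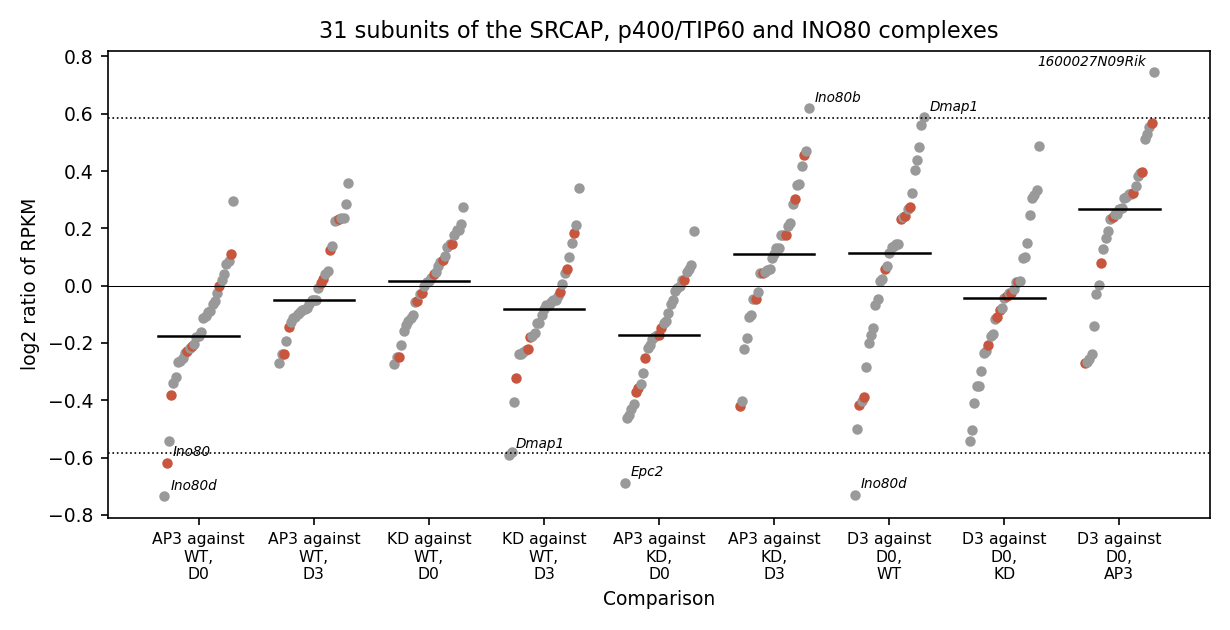
Log2 ratio of RPKM in each comparison for the 31 subunits of the SRCAP, p400/TIP60 and INO80 complexes found in the table, sorted within a comparison, with members in orange, other subunits in grey, medians as black bars and 1.5-fold as dotted lines. KD stands for the library labelled H2AZ KD. Most subunits lie between the dotted lines in all comparisons, and those past them are named.

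The members were set beside the other subunits of their complexes. Of the listed subunits, 8 of 9 of SRCAP, 17 of 18 of p400/TIP60 and all 15 of INO80 were found, 31 genes in all, of which 6 are members. In H2AZ AP3 against H2AZ WT ESCs 2 of 31 were past 1.5-fold, against 12.3% of all entries, both lower: Ino80 and Ino80d, a subunit of the same complex, with 4.65 against 7.74 RPKM (-0.73). At D0 the subunits had a median of -0.17 in H2AZ AP3 against H2AZ WT, with 24 of 31 below 0. Fibroblast and endoderm marker sums were higher in this H2AZ AP3 library (44.9 and 26.0 RPKM, as above), and their part in the median was not tested. In the library labelled H2AZ KD against H2AZ WT at D3, 23 of 31 were below 0, with a median of -0.08 against -0.03 for all entries. For H2AZ AP3 against the library labelled H2AZ KD, 25 of 31 were below 0 at D0, with a median of -0.17 against 0.03. At D3, 22 of 31 were above 0, with a median of 0.11 against 0.02, or -0.23 scaled on the control genes. For H2AZ AP3 against H2AZ WT none of the 31 was past 1.5-fold at D3, against 9.26% of all entries, and the median was -0.05. Scaled on the control genes that median was -0.45, and at least Ep400 was past 1.5-fold, at -0.63.

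Dmap1, a scaffold subunit of SRCAP and p400/TIP60, was lower in the library labelled H2AZ KD than in H2AZ WT at D3, with 11.3 against 17.0 RPKM (-0.59). It was also higher at D3 than at D0 in H2AZ WT (0.59). Epc2 of p400/TIP60 was lower in H2AZ AP3 than in the library labelled H2AZ KD at D0 (-0.69), and Ino80b of INO80 was higher at D3 (0.62, or 0.27 and short of 1.5-fold scaled on the control genes). Each of these is 1 of 31 subunits in its comparison between lines, against background shares of 7.77%, 16.6% and 10.6%. None of the 31 passed 1.5-fold between the library labelled H2AZ KD and H2AZ WT at D0, against 6.96%.

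From D0 to D3, 2 of 31 subunits passed 1.5-fold in H2AZ WT (Dmap1 higher and Ino80d lower, at -0.73) where 21.0% of entries did, none in the line labelled H2AZ KD against 20.4%, and 1 in H2AZ AP3 against 22.3%. The last was 1600027N09Rik, the older name of Mrgbp of p400/TIP60, with 11.1 RPKM at D3 and 6.62 RPKM at D0 (0.74, or 0.38 and short of 1.5-fold scaled on the control genes). Dmap1 in H2AZ WT also came just short, at 0.57. The subunits' median was 0.12, -0.04 and 0.27 in H2AZ WT, the line labelled H2AZ KD and H2AZ AP3, and the 25 subunits that are no members had the same medians. Scaled on the control genes it was 0.10, -0.16 and -0.10, so H2AZ AP3 was no longer the highest. The median range over the 6 libraries was 1.36-fold for SRCAP, 1.4-fold for p400/TIP60 and 1.38-fold for INO80 subunits, against the 1.52-fold of all expressed entries.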

How the data were processed

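Poly(A) RNA was sequenced by the authors from TruSeq libraries, and single-end reads were aligned to mm9 with TopHat and Bowtie 0.12.7, with up to 2 mismatches and 20 locations for each read. The sources give different TopHat versions. The authors deposited RPKM per gene from Cufflinks 1.3.0. The deposited table also holds 6 columns of the authors' log2 ratios between lines, which were not used. The study's other assays were not analysed here.

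Log2((RPKM + 0.001)/(RPKM + 0.001)) was computed for 9 pairs of libraries, and a gene was called past 1.5-fold. With 1 library per condition there is no replicate check and no p-value. Background shares are over entries whose mean reached 1 RPKM. The spacing of low RPKM values of 3696 genes longer than 1500 bases gave each library's depth, and the 95% intervals of a ratio come from the estimated reads. They cover counting error only, since reads carry no molecular identifiers and are not independent molecules.

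The members and gene lists were chosen with earlier results of these data known. All members were named, as were listed genes past 1.5-fold with a mean of at least 5 RPKM, and the 3 nearest profiles of H2afz and H2afv, of which 1 is not reported here. Positions, transcript lengths and sequences come from the NCBIM37 genome and its GENCODE annotation, with copies found by minimap2 2.31. Alternatives were pseudocounts of 0.1 and 1, a 2-fold and a lower threshold (0.32 on the log2 scale), other filters, centring on the median ratio, scaling on Hprt, Gapdh and Tubb5, summing entries per symbol and, added after seeing the data, centring on genes of like length. The depth estimate and the 1.5-fold call were tested on simulated counts. For the depth estimate these were drawn at the estimated depths, so they cannot show whether the depths themselves are right. The software was Python 3.11.15 with scipy 1.17.1, pandas 2.3.3, numpy 2.4.6 and matplotlib 3.10.9.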

Additional observations from a re-analysis of the deposited data

Results flagged for a closer look

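In 4 cases a member's log2 ratio of D3 to D0 pointed one way in one line and the other way in another, with a gap past 1.5-fold. With 1 library per condition, none of these differences was tested, and some depend on the scaling. H2afz was at 0.37 in H2AZ AP3 and at -0.54 in the line labelled H2AZ KD, a gap of 0.91. The same 4 libraries read by day give 0.74 at D3 and -0.18 at D0 for H2AZ AP3 against the library labelled H2AZ KD. Anp32e was at 0.59 in H2AZ AP3 and at -0.22 in the line labelled H2AZ KD, a gap of 0.81, and read by day at 0.26 at D3 and -0.55 at D0. Anp32e in the line labelled H2AZ KD also lay below H2AZ WT (0.38), by a difference of -0.60, and read by day at -0.21 at D3 and 0.40 at D0. Ino80 was at 0.24 in H2AZ AP3 and at -0.39 in H2AZ WT, a gap of 0.63, and read by day at 0.01 at D3 and -0.62 at D0. Scaled on Hprt, Gapdh and Tubb5, Ino80 was at -0.13 and -0.41, so its opposite directions ended and its gap came to 0.29. The gap of Anp32e between H2AZ AP3 and the line labelled H2AZ KD came to 0.56, short of 1.5-fold, with the lines still in opposite directions from D0 to D3 but, read by day, both values below 0 (-0.09 and -0.65). H2afz in H2AZ AP3 came to 0.01 with a gap of 0.67, and the difference of Anp32e between the line labelled H2AZ KD and H2AZ WT to -0.70. Centred on genes of like length, all 4 kept opposite directions and gaps past 1.5-fold.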

How the results depend on the processing

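Counts are of members past 1.5-fold unless another threshold is named. A pseudocount of 0.1 left every count as it was. Filters on low values and summing entries per symbol cannot move the members' counts, but they move the share of all entries: between lines it was 2.81% to 10.7% over entries of at least 5 RPKM and 19.7% to 27.0% with no filter, and from D0 to D3 13.5% to 15.3% and 30.2% to 31.0%. At 2-fold the counts were 0 in each comparison. At the lower threshold, 0.32 on the log2 scale, they were 2 (Ep400 and Ino80) for H2AZ AP3 against H2AZ WT at D0, 1 (Anp32e) and 1 (Vps72) for the library labelled H2AZ KD against H2AZ WT at D0 and D3, 3 and 3 for H2AZ AP3 against the library labelled H2AZ KD at D0 and D3, and 3, 1 and 5 for D3 against D0 in H2AZ WT, the line labelled H2AZ KD and H2AZ AP3, while 23.3% to 40.5% of all entries passed it between lines and 41.4% to 46.9% from D0 to D3. A pseudocount of 1 gave 0 for H2AZ AP3 against H2AZ WT at D0 (Ino80 at -0.56) and 0 for D3 against D0 in H2AZ AP3 (Anp32e at 0.58), where centring on the median ratio also gave 0 (0.54). Centring on genes of like length, added after seeing the data, gave 0 in each comparison that had 1, and 1 (H2afz) for D3 against D0 in the line labelled H2AZ KD. Scaling on the control genes gave 1 (H2afz, at -0.66) there and 1 (Anp32e, at -0.65) for H2AZ AP3 against the library labelled H2AZ KD at D0. In the comparisons with H2AZ AP3 at D3 it left the count at 1, with Ep400 in place of H2afz or Anp32e. No called ratio changed sign under any alternative. Replicates could not be paired, since each condition has 1 library. D3 and D0 were compared within each line, and a fit pooling the 3 lines as pairs was not run, since the lines differ by design. No replicate could be left out, and the spread between cultures is unknown.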

Other observations

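Other listed chromatin genes past 1.5-fold are given as values. H2afj, which encodes the variant H2A.J, had 75.7 RPKM in H2AZ AP3 ESCs against 43.9 RPKM in H2AZ WT ESCs (log2 ratio 0.78) and 46.0 RPKM in the ESC library labelled H2AZ KD (0.72). H2afy2, a macroH2A gene, had 13.9 RPKM in the ESC library labelled H2AZ KD and 8.90 RPKM in H2AZ WT ESCs (0.64), and 14.6 RPKM in H2AZ WT at D3 (0.71 relative to D0). H2afx, which encodes the variant phosphorylated at DNA breaks, had 90.2 RPKM at D3 and 146 RPKM at D0 in the line labelled H2AZ KD (-0.69). At most 1 of the 7 listed variants passed 1.5-fold in any comparison, against 6.96% to 22.3% of all entries.

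Of the 2 listed proteins that bind H2A.Z nucleosomes, Brd2 passed 1.5-fold from D0 to D3 in H2AZ WT and in the line labelled H2AZ KD, where 21.0% and 20.4% of all entries did. Brd2, a bromodomain protein that binds acetylated H2A.Z nucleosomes, had 47.5 RPKM at D3 against 78.9 RPKM at D0 in H2AZ WT (-0.73), and 42.0 against 94.0 RPKM in the line labelled H2AZ KD (-1.16). Pwwp2a, the other, had 17.5 RPKM at D3 against 13.5 RPKM at D0 in H2AZ WT and 18.0 against 15.1 RPKM in the line labelled H2AZ KD, short of 1.5-fold in the opposite direction. In H2AZ AP3 the directions were the same, both short of 1.5-fold, with Brd2 at 49.9 RPKM at D3 against 68.3 RPKM at D0 and Pwwp2a at 17.3 against 13.3 RPKM. Of 15 histone chaperones, Anp32e and the H3-H4 chaperone Asf1a, with 34.1 RPKM at D3 and 21.9 RPKM at D0 (0.64, or 0.27 scaled on Hprt, Gapdh and Tubb5), passed 1.5-fold in H2AZ AP3 from D0 to D3, where 22.3% of all entries did, and none did in the other 8 comparisons, against 6.96% to 21.0%. Among the control genes Gapdh had 1859 RPKM in H2AZ AP3 at D3 and 1221 RPKM in the D3 library labelled H2AZ KD (0.61), and Tubb5 had 765 RPKM in H2AZ AP3 at D3 and 478 RPKM at D0 (0.68). Each was 1 of 3 control genes past 1.5-fold in its comparison, against 10.6% and 22.3% of all entries, and none passed in the remaining comparisons.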
